A study of Mus musculus with 13 samples.

Results

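The transcripts followed here, 5 that are annotated as long noncoding RNA, are Gm47761, Gm42047, 1810008I18Rik, Neat1 and Malat1. They are 5 of the 53392 genes in the deposited count table, found there by their symbols, and all 5 passed the filter on low counts with 14317 genes in total. Gm47761, Gm42047 and 1810008I18Rik were picked because their counts were higher in the livers with the induced transgene, so their differences between groups are a description and carry no test. Neat1 and Malat1 were added as abundant nuclear RNAs against which the other members could be set.

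The libraries came from the livers of 13 female mice aged 8 to 14 weeks that had received a liquid diet with 28% of calories as ethanol (Etoh) for 4 weeks. Every mouse was homozygous for Rosa26-loxP-stop-loxP-rtTA and for Albumin-Cre, which is active in hepatocytes, and the ASAH+ littermates also carried TRE-ASAH1, from which doxycycline (Dox) turns on the acid ceramidase ASAH1. The groups were ASAH- on Etoh-Dox (n = 4, Dox at 200 mg/l), ASAH+ on Etoh-Dox (n = 5, the same Dox) and ASAH+ on Etoh without Dox (n = 4). The series' design text gives 4 mice a group, whereas the labels and the count table hold 5 of ASAH+ on Etoh-Dox, and all 5 were used. No group received a diet without ethanol. The titles of the ASAH+ samples name the opposite Dox treatment from their descriptions and induction labels, and the latter, which give 1 answer between them, were used. Under these labels Asah1 lay between 9668 and 15935 CPM (counts per 1000000 counts, scaled by the trimmed mean of M values) in ASAH+ Etoh-Dox mice and between 40.0 and 55.0 CPM in all other mice. Library totals were 17819500 to 35358700 counts, and long noncoding RNA took 0.718% to 0.921% of them. Mitochondrial transcripts took 7.33% to 7.90% in ASAH- Etoh-Dox, 6.83% to 7.60% in ASAH+ Etoh-Dox and 5.76% to 7.22% in ASAH+ Etoh, where 1810008I18Rik was also lowest, and their part in its level was not tested.

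Long noncoding RNAs are transcripts that are not thought to be translated, and many, though not all, are spliced and polyadenylated like messenger RNA. Neat1 is the scaffold on which paraspeckles, nuclear bodies of RNA and RNA-binding proteins, are built, and Malat1 gathers in nuclear speckles beside splicing factors. Both are made in liver. The long form of Neat1 and mature Malat1 end without a poly(A) tail, so libraries selected on poly(A), as these were, do not hold all of either RNA. No function is described here for Gm47761, Gm42047 or 1810008I18Rik.

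The transcripts differ in where they lie and in how far their reads can be told from those of other genes. Gm47761 is at chr10:17318085-17323228 on the minus strand of GRCm38, inside the longer noncoding gene Gm47760, and its longest transcript has 3 exons. Gm42047 is at chr8:121833247-121841178 on the plus strand, with 4 exons in its longest transcript, inside the annotated span of Gm20388 on the same strand. 1810008I18Rik, a single exon in its longest transcript, is at chr7:65803111-65806449 on the plus strand between Tm2d3 and Pcsk6. Neat1 (chr19:5824708-5845478) and Malat1 (chr19:5795690-5802672) are neighbours on the minus strand with 22036 bases between them.

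Gm47761 and Gm42047, on different chromosomes, hold stretches that are near copies. Of the 3442 words of 31 bases in the transcripts of Gm47761, 2035 (59.1%) also occur in Gm42047, where they are 36.2% of the words. A stretch of 1606 aligned bases had 1598 identical (99.5%) and 1 gap. Only 34.3% of the words of Gm47761 and 27.7% of those of Gm42047 occur in no other gene, against 99.6% for 1810008I18Rik, 97.9% for Neat1 and 97.6% for Malat1. All of the words of exon 1 of Gm47761 are also in Gm42047, as are 53.3% of those of exon 2 and 78.1% of those of exon 3. The longest exon of Gm42047, at 2528 bases, has 23.2% of its words in Gm47761.

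The other 4 noncoding genes of this kind, Gm43549 on chromosome 3, Gm46349 on chromosome 12, Gm47939 on chromosome 10 and Gm48362 on chromosome 9, share at least 200 words with either gene. RefSeq lists Gm47761, Gm46349 and Gm47939 as pseudogenes. The longest open reading frame from an ATG to a stop codon was 603 codons in Gm47761, the whole of a transcript of 1812 bases, and 393 codons in Gm42047. It was 77 codons in 1810008I18Rik, 126 in Neat1 and 64 in Malat1. The word noncoding is therefore the annotation's for the first pair of genes, and whether these frames are translated was not measured. Reads from the shared stretches are divided between the genes by estimate, so the separate levels of Gm47761 and Gm42047 are uncertain. The sum of the 6 related genes is given further below.

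Sequence around the annotated starts is shown for 1810008I18Rik, the picked transcript whose reads map to it alone over nearly all of its length. RefSeq (GRCm38.p6) gives it 2 starts, and each line holds 250 bases before a start and 50 after it, on the plus strand, at chr7:65802787-65803086 and chr7:65803783-65804082. The capitals mark an E-box.
1810008I18Rik, upstream start: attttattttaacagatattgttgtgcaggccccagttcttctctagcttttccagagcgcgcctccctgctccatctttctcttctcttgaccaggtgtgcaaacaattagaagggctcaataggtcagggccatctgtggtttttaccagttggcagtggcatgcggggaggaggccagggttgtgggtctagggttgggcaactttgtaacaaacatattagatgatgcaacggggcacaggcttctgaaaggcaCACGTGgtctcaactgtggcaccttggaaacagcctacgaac
1810008I18Rik, downstream start: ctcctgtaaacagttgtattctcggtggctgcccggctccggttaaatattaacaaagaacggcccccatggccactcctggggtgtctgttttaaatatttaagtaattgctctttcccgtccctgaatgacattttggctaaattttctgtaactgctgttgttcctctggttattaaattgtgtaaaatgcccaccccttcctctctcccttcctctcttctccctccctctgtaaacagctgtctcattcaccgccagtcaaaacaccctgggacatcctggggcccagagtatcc
The E-box CACGTG, the letters bound by the clock factor encoded by Arntl among others, reads the same on both strands and was found in the upstream window at bases 9 to 14 after the start, as in 7.15% of 32851 promoters of this length. The D-box TTATGTAA, bound by the clock output factor encoded by Dbp, was in neither window on either strand and is in 0.938% of all promoters. These matches describe letters in these windows and show no binding.

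Gm47761 was highest in the induced livers and lowest in ASAH- livers. It was at 4.79, 8.02, 6.69 and 4.65 CPM in ASAH- Etoh-Dox mice, at 12.001, 10.81, 10.48, 15.24 and 11.23 CPM in ASAH+ Etoh-Dox mice and at 9.63, 10.3, 8.95 and 5.15 CPM in ASAH+ Etoh mice. Every induced mouse was above all of the other mice, but the highest uninduced ASAH+ mouse, at 10.25 CPM, was close to the lowest induced one, at 10.48 CPM. The values rest on 89 to 434 counts a mouse. The mean was 11.95 ± 1.92 CPM (SD, n = 5) in ASAH+ Etoh-Dox, 6.04 ± 1.61 (n = 4) in ASAH- Etoh-Dox and 8.50 ± 2.30 (n = 4) in ASAH+ Etoh. The fitted log2 fold change of the induced livers was 0.98 (SE 0.21) against ASAH- Etoh-Dox and 0.49 (SE 0.21) against ASAH+ Etoh, and the latter fell to 0.30 without ASAH+ Etoh mouse 4.

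Gm42047 followed the same order at higher CPM. It was at 38.3, 69.3, 49.6 and 36.8 CPM in ASAH- Etoh-Dox, at 97.3, 85.4, 83.9, 129.4 and 90.8 CPM in ASAH+ Etoh-Dox and at 92.2, 96.8, 73.0 and 39.6 CPM in ASAH+ Etoh. Against ASAH- mice the induced group did not overlap. Against uninduced ASAH+ mice it did: the first pair of those mice stood within the induced range, and only 14 of 20 pairs of an induced and an uninduced mouse had the induced mouse higher. Means were 97.4 ± 18.7 CPM (SD, n = 5), 48.5 ± 14.9998 (n = 4) and 75.4 ± 26.0 (n = 4) in the order ASAH+ Etoh-Dox, ASAH- Etoh-Dox and ASAH+ Etoh. The log2 fold change of the induced livers was 1.00 (SE 0.26) against ASAH- Etoh-Dox and 0.37 (SE 0.25) against ASAH+ Etoh. The second value fell to 0.15 without ASAH+ Etoh mouse 4 and to 0.24 without ASAH+ Etoh-Dox mouse 4. Gm42047 in the induced livers was thus apart from the ASAH- group alone, and the uninduced carriers of the transgene overlapped with the induced ones.

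The third picked transcript, 1810008I18Rik, had another order, with the uninduced ASAH+ livers lowest. Its levels were 18.76, 21.001, 14.98 and 19.52 CPM in ASAH- Etoh-Dox mice. ASAH+ Etoh-Dox mice had 24.9, 25.8, 32.9, 25.5 and 22.2 CPM, and ASAH+ Etoh mice had 14.10, 18.03, 15.78 and 12.49 CPM. All induced mice were above the highest other mouse, which was an ASAH- mouse at 21.001 CPM. Means were 26.3 ± 3.99 CPM (SD, n = 5) with induction, 18.6 ± 2.57 (n = 4) in ASAH- Etoh-Dox and 15.1 ± 2.37 (n = 4) in ASAH+ Etoh. The log2 fold change was 0.50 (SE 0.13) against ASAH- Etoh-Dox and 0.80 (SE 0.14) against ASAH+ Etoh.

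**Figure D1:**
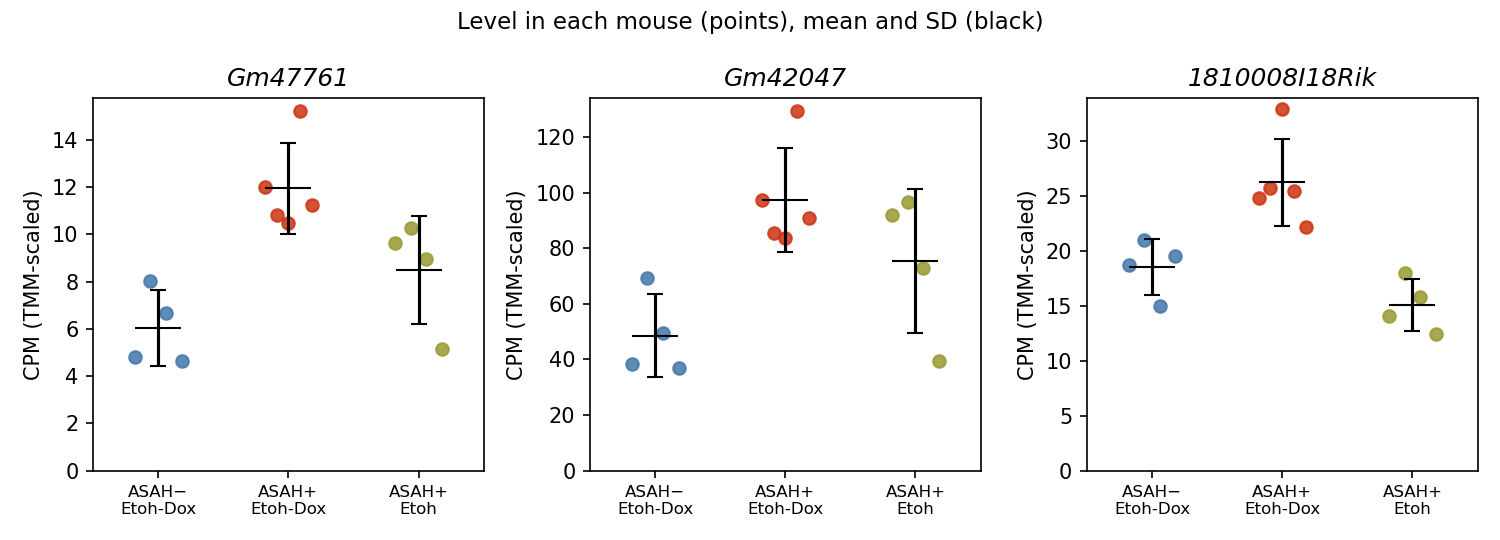
CPM of Gm47761, Gm42047 and 1810008I18Rik (vertical axes, linear, from 0) in each of 13 mice (points) of the 3 groups (horizontal axis), with the group mean and SD in black. For Gm47761 and 1810008I18Rik the 5 induced mice lie above the other 8, while for Gm42047 ASAH+ Etoh mice at 92.2 and 96.8 CPM lie among the induced ones.

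The number of genes that separate the groups in this way gives the background for those values. In 63 of the 14317 genes tested (0.44%) every ASAH+ Etoh-Dox mouse was higher than every ASAH- Etoh-Dox mouse, and in 156 (1.09%) every one was higher than every ASAH+ Etoh mouse. All of the picked members are among the former and 2 of the 3 among the latter. In 10 genes (0.0698%) every induced mouse was above all 8 others, and 1810008I18Rik and Gm47761 were the members among them, beside Asah1 itself, Sod1 (cytosolic superoxide dismutase), Nucb2, Kif16b, Mapk8ip3, Gripap1, Tes and Zfp773. Nothing is read from these shares, because these comparisons chose the members.

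Dox-treated ASAH- mice and untreated ASAH+ mice, in neither of which the transgene was induced, were set side by side as well. Both served as the comparators when the picked members were chosen, so their difference is also a description and carries no test. The pair with shared sequence was lower in the ASAH- mice by log2 fold changes of -0.50 (SE 0.22) for Gm47761 and -0.64 (SE 0.27) for Gm42047. 1810008I18Rik was higher in them by 0.30 (SE 0.14). Of 16 pairs of an ASAH- and an uninduced ASAH+ mouse, the ASAH- mouse was higher in 2 for Gm47761, in 2 for Gm42047 and in 14 for 1810008I18Rik. These groups differ in genotype as well as in Dox, which cannot be told apart here.

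Because reads are shared, the 6 related genes were also counted as 1. Their summed level was 44.3, 79.0, 56.8 and 41.7 CPM in ASAH- Etoh-Dox, 111.6, 97.9, 97.4, 146.3 and 102.8 CPM in ASAH+ Etoh-Dox and 104.0, 108.2, 83.1 and 45.1 CPM in ASAH+ Etoh. As with Gm42047, 2 uninduced mice lay within the induced range. The summed log2 fold changes were 1.00 (SE 0.25) for induced against ASAH- livers, 0.39 (SE 0.25) for induced against uninduced ASAH+ livers and -0.62 (SE 0.26) for ASAH- against uninduced ASAH+ livers. Gm42047 and Gm47761 held nearly all of the sum. The 4 other genes together had 0.25 to 3.04 CPM in a mouse, most of it in Gm47939.

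Mice of 1 group varied together in this pair. Gm42047 read 7.41 to 9.57 times the CPM of Gm47761 (median 8.08) in the 13 mice. After each group's mean was subtracted, Pearson's r between their log2 levels was 0.98 (permutation p = 3e-05, adjusted p = 0.0003 over 10 pairs of members) and Spearman's rho 0.99 (permutation p = 3e-05), with r = 0.97 without the 2 mice farthest from the median. Estimated division of shared reads may tie these values to each other, and its part in r was not tested. This r is therefore not evidence of 2 separate transcripts. The other 9 pairs of members had r between -0.12 and 0.32 and adjusted permutation p = 0.997.

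**Figure D2:**
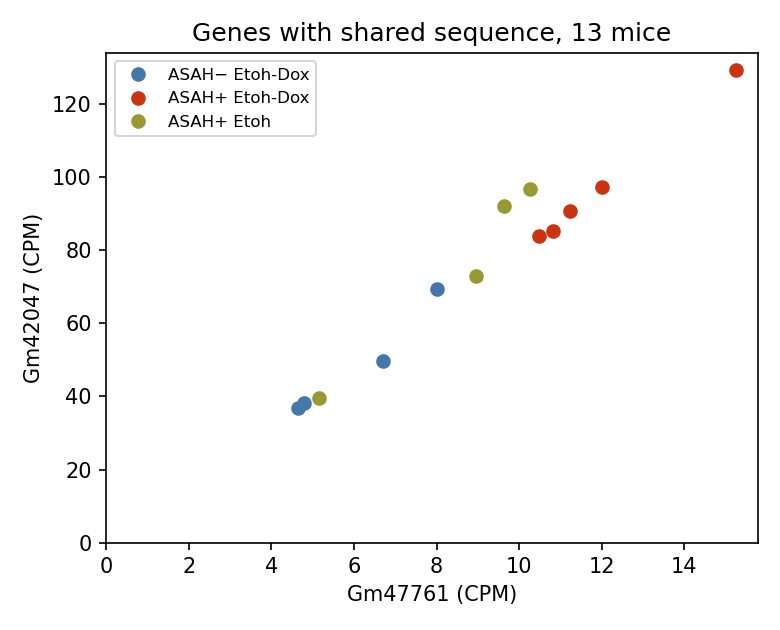
CPM of Gm47761 (horizontal) against Gm42047 (vertical) in 13 mice, coloured by group. The points lie near 1 line, with Gm42047 at 7.41 to 9.57 times Gm47761, and ASAH+ Etoh mouse 4 (5.15 and 39.6 CPM) sits among the ASAH- mice.

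Neat1 varied widely between mice of every group. It was at 160.0, 86.5, 154.1 and 68.8 CPM in ASAH- Etoh-Dox mice, at 40.7, 113.2, 224.9, 127.4 and 58.5 CPM in ASAH+ Etoh-Dox mice and at 122.1, 37.2, 48.6 and 78.5 CPM in ASAH+ Etoh mice. The groups overlapped throughout, and the induced group alone spanned a 5.52-fold range. Means were 113 ± 72.3 CPM (SD, n = 5) in ASAH+ Etoh-Dox, 117 ± 46.5 (n = 4) in ASAH- Etoh-Dox and 71.6 ± 37.9 (n = 4) in ASAH+ Etoh. Its within-group SD of 0.81 on the log2 scale was above that of 99.1% of the 988 genes of similar mean level, whose median SD was 0.15.

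No comparison of Neat1 passed the test against this spread. Against ASAH- Etoh-Dox the log2 fold change was -0.055 (SE 0.50, edgeR adjusted p = 0.9997, exact permutation p = 0.706), and its sign changed when ASAH- Etoh-Dox mouse 1 (0.15) or 3 (0.10), or ASAH+ Etoh-Dox mouse 1 (0.16) or 5 (0.12), was left out. Against ASAH+ Etoh it was 0.66 (SE 0.50, adjusted p = 0.807, exact permutation p = 0.373), and 0.24 without ASAH+ Etoh-Dox mouse 3 or 1.05 without ASAH+ Etoh mouse 1. Between the groups without induction, ASAH- Etoh-Dox against ASAH+ Etoh, it was 0.71 (SE 0.53, adjusted p = 0.727, exact permutation p = 0.143). Leaving out each mouse in turn gave 0.50 to 1.10 there. The smallest p that 5 against 4 mice allow is 0.00794, and 4 against 4 mice allow 0.0286. With standard errors of 0.50 to 0.53, a change of that size was not detectable here.

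Malat1 was the steadiest of the members in both ASAH+ groups. It read 48.5, 54.2, 52.0, 51.0 and 58.0 CPM in ASAH+ Etoh-Dox and 56.8, 47.8, 47.2 and 52.7 CPM in ASAH+ Etoh. ASAH- Etoh-Dox mice had 56.7, 73.0, 34.1 and 50.2 CPM and held both the highest and the lowest value of the study. Group means lay close together, at 52.7 ± 3.55 (SD, n = 5), 51.1 ± 4.51 (n = 4) and 53.5 ± 16.1 CPM (n = 4).

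The log2 fold changes of Malat1 were -0.021 (SE 0.16) for ASAH+ Etoh-Dox against ASAH- Etoh-Dox, 0.045 (SE 0.16) for ASAH+ Etoh-Dox against ASAH+ Etoh and 0.065 (SE 0.17) for ASAH- Etoh-Dox against ASAH+ Etoh. The edgeR adjusted p values were 0.9997, 0.974 and 0.942 and the exact permutation p values 0.857, 0.508 and 1.0. Its sign was not stable: leaving out ASAH- Etoh-Dox mouse 2 gave 0.17 and -0.12 in the first and last comparison. Leaving out ASAH- Etoh-Dox mouse 1 or ASAH+ Etoh-Dox mouse 1 also turned the first, to 0.013 and 0.0090, and leaving out ASAH+ Etoh mouse 3 turned the second, to -0.0011. Neither nuclear reference was thus raised beyond its spread, and edgeR called 2 of 14317 genes (0.014%) in each of these comparisons.

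**Figure D3:**
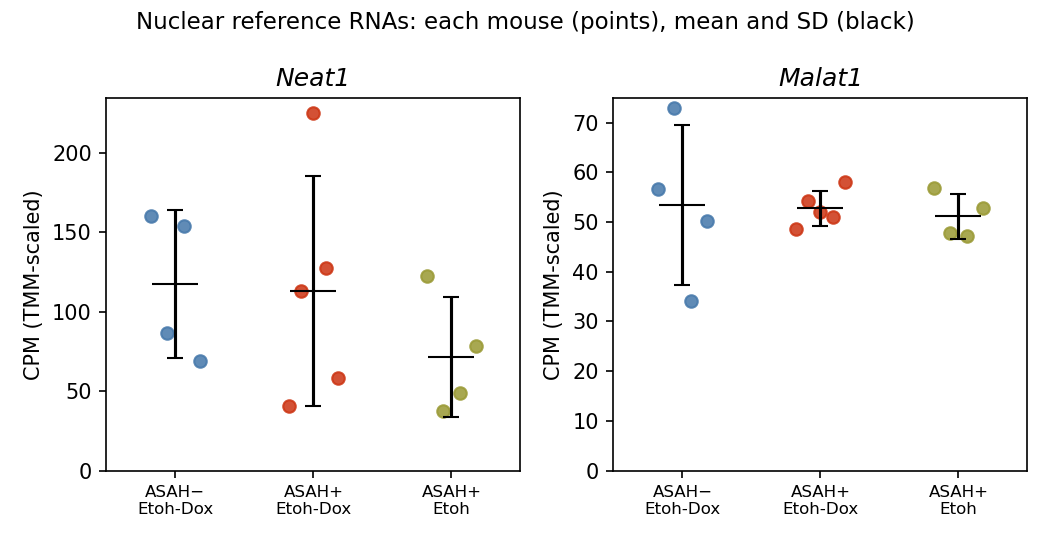
CPM of Neat1 and Malat1 (vertical axes, linear, from 0) in each of 13 mice (points) by group, with mean and SD in black. Neat1 spreads from 37.2 to 224.9 CPM with all groups overlapping, and Malat1 lies between 47.2 and 58.0 CPM in both ASAH+ groups.

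**Figure D4:**
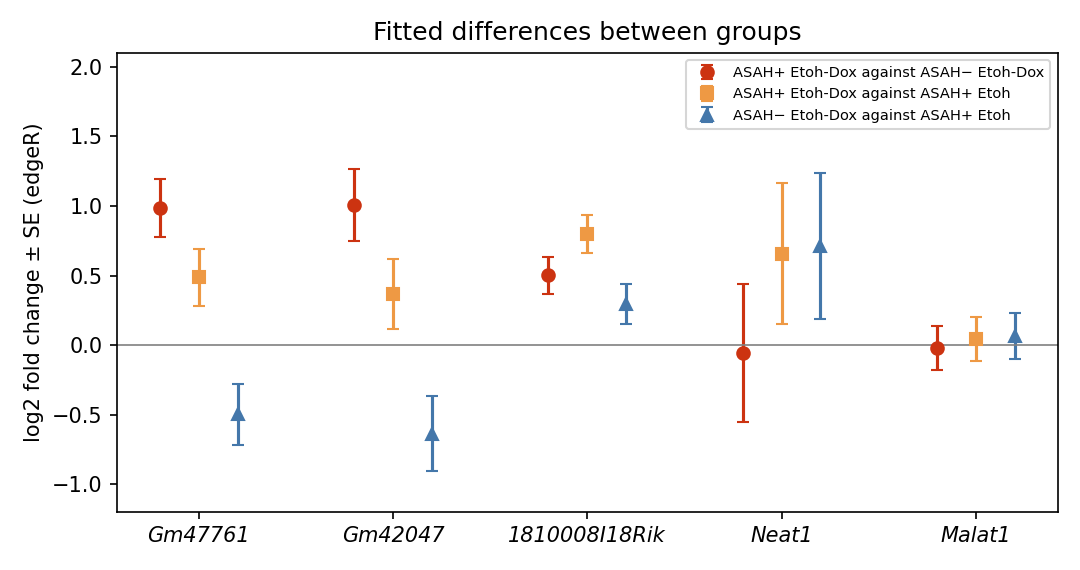
Log2 fold change with its SE (vertical axis) of the 5 members in the 3 comparisons (symbols), fitted by edgeR over 13 mice. Gm47761 and Gm42047 lie near 1 for induced against ASAH- livers and below 0 for ASAH- against uninduced ASAH+ livers, whereas 1810008I18Rik is above 0 in all 3 and Malat1 is near 0 in all 3.

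Compared per length, the members ranked in another order than by CPM. Over 13 mice the mean was 13.4 ± 4.96 CPM per kilobase of exon (SD) for Gm42047, 8.31 ± 2.34 for 1810008I18Rik, 7.51 ± 1.24 for Malat1, 4.89 ± 2.67 for Neat1 and 2.63 ± 0.91 for Gm47761. The ranges of mean ± SD of neighbours in this order overlapped. The separate places of Gm42047 and Gm47761 rest on the estimated division of their shared reads. Among 1030 long noncoding RNA genes tested they ranked 33, 50, 56, 89 and 148 on that scale. The order of 1810008I18Rik and Malat1 depended on the group. 1810008I18Rik was at 10.7 against 7.55 in the induced livers, for which it was picked. It was at 7.54 against 7.66 in ASAH- Etoh-Dox and at 6.13 against 7.32 in ASAH+ Etoh. Over the longest transcript instead of all exons, ASAH- Etoh-Dox had 7.68 against 7.66, so the order in that group also depended on the length. By CPM alone Neat1 stood higher, at rank 11, as its longest annotated transcript is the longest of the members at 20771 bases. That is the long form, which ends without a poly(A) tail and is not fully held in these libraries. A transcript of 3004 bases is also annotated, and over that length the CPM per kilobase of Neat1 would be higher. Its place and its rank of 89 therefore hold for the length of the long form only.

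Neat1 was also set against the ratio of Dbp to Arntl, clock genes that peak at opposite phases of the day, which differed between mice. The log2 ratio ran from -1.64 to 6.78 over the 13 mice, and from 1.60 to 6.06 in ASAH+ Etoh, whose mice did not reach the low values of the other groups. Within groups, Neat1 had Pearson's r = -0.70 with it (permutation p = 0.0203, adjusted p = 0.102 over the 5 members) and Spearman's rho = -0.68 (permutation p = 0.0245), with r = -0.56 without the 2 mice farthest from the median. The negative relation did not pass the correction at 0.1. The other members had r between 0.10 and 0.30 with adjusted permutation p of 0.53 or 0.765, and without the 2 farthest mice r was 0.59 for 1810008I18Rik and 0.11 to 0.30 for the rest. With the ratio as a covariate, the log2 fold changes for induced against uninduced ASAH+ livers were 0.35 for Neat1, 0.53 for Gm47761, 0.44 for Gm42047 and 0.80 for 1810008I18Rik, in place of 0.66, 0.49, 0.37 and 0.80. For induced against ASAH- livers they were -0.16, 1.00, 1.04 and 0.50 in place of -0.055, 0.98, 1.00 and 0.50. The hour of liver collection in these mice is not given in the sources used here.

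**Figure D5:**
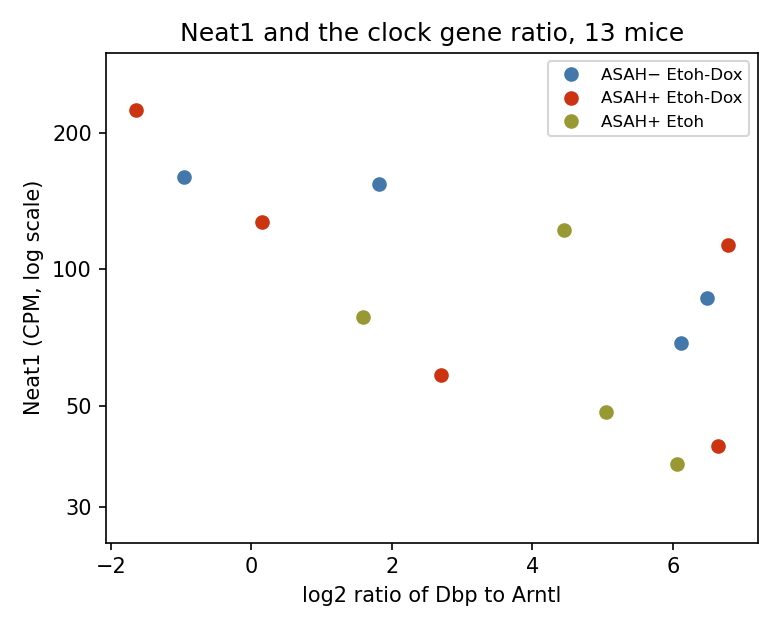
Neat1 (CPM, log axis) against the log2 ratio of Dbp to Arntl in 13 mice, coloured by group. The highest Neat1 value, 224.9 CPM, is at the lowest ratio, -1.64, and the lowest, 37.2 CPM, at a ratio of 6.06.

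The 3 genes closest to each member in their within-group deviations over 13 mice included some that share sequence with it. For both Gm47761 and Gm42047 these were the partner, Gm21244 (r = 0.93 and 0.95) and Kank1 (r = 0.92 and 0.91), a regulator of the actin cytoskeleton. Gm21244 is annotated on chromosome Y although all mice were female, had a mean of 0.308 CPM, and 0% of its words occur in no other gene. It was not among the genes found to share words with Gm47761 or Gm42047, but that search left out small overlaps. Kank1 on chromosome 19 is different in that 100% of its words are its own, and it was at 60.2 CPM.

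For 1810008I18Rik the closest were Armc10 (r = 0.95), Vwa5a (0.87) and Polr2m (0.87). For Neat1 they were Gm27533 (0.95), which lies within Neat1 and has no word of its own, and the zinc finger genes Zfp518a (0.93) and Zfp14 (0.92). For Malat1 they were Gm47408 (0.90), Spc24 (0.87), a kinetochore subunit that shares 55 words with Malat1, and ccdc198 (0.83). Spearman's rho for Malat1 and Spc24 was only 0.60. As the highest of 14317, these r values are a description.

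None of the tested genes around the members passed the threshold, which 2 of 14317 genes (0.014%) did in each comparison. The picked members carry no test, so this sets no contrast between them and their neighbours. Near Gm42047, Klhdc4 on the opposite strand, 3678 bases away, had a log2 fold change of 0.22 (SE 0.13) for induced against ASAH- livers, Slc7a5, an amino acid transporter subunit, had -0.16 (SE 0.18), and the overlapping Gm20388 had -0.021 (SE 0.13). Beyond Gm47761, Cited2, a transcriptional coregulator 399990 bases away, had 0.30 (SE 0.15) and, for induced against uninduced livers, 0.44 (SE 0.15, unadjusted p = 0.0121, edgeR adjusted p = 0.551, higher in 19 of 20 pairs of mice). Nmbr averaged 0.064 CPM or less in every group and was not tested. Gm47760, within which Gm47761 lies, had 0 counts in every mouse. For induced against ASAH- livers all adjusted p values of the tested genes of these loci were 0.9997 by edgeR.

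Beside 1810008I18Rik, Tm2d3 had a log2 fold change of 0.25 (SE 0.13, edgeR adjusted p = 0.704) and Pcsk6, a proprotein convertase, -0.13 (SE 0.12, adjusted p = 0.830) for induced against uninduced ASAH+ livers. On the far side of Neat1 from Malat1, Frmd8 had -0.052 (SE 0.18, edgeR adjusted p = 0.973) in that comparison. Of the small RNAs annotated inside Neat1 and Malat1, Gm27533 in Neat1 was tested, at means of 1.72 CPM in ASAH- Etoh-Dox, 1.51 in ASAH+ Etoh-Dox and 0.94 in ASAH+ Etoh. Its log2 fold changes were -0.18 (SE 0.41) for induced against ASAH-, 0.68 (SE 0.44) for induced against uninduced and 0.86 (SE 0.46) for ASAH- against uninduced livers, with edgeR adjusted p = 0.9997, 0.764 and 0.595. The others, Gm27505, Gm28006 and Gm27694, and Gm37376 on the strand opposite Malat1 averaged under 1 CPM in each group and did not pass the count filter.

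Genes for proteins that bind or turn over nuclear RNA, and other noncoding RNAs, showed no change past the threshold. Over 5 lists of 93 genes tested, edgeR called 0 in each of the 3 comparisons, as did DESeq2 and limma. Over all genes edgeR called 2 of 14317 (0.014%) in each, so 0 calls say nothing particular about these lists. DESeq2 called 12, 95 and 150 genes in all and limma 2, 2 and 1, in the order of the next sentence. Among the 63 genes of the 3 protein lists 1, 0 and 3 had an unadjusted p under 0.05 for induced against ASAH-, induced against uninduced and ASAH- against uninduced livers, and among the 30 genes of the 2 other lists, 29 noncoding RNAs and the protein-coding Lars2, 0, 3 and 1 did. Among all genes tested, 2.86%, 7.29% and 9.19% had such a p.

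All 20 paraspeckle genes were tested, with median log2 fold changes of 0.027, 0.010 and -0.010 in the same order, against -0.0023, 0.013 and 0.016 over all genes. The smallest p values belonged to Cpsf6 (0.20, SE 0.11) and Cpsf7 (0.13, SE 0.081), subunits of the cleavage factor that sets polyadenylation sites, for induced against ASAH- livers. Nudt21, their partner subunit, had -0.18 (SE 0.089) and Akap8l 0.25 (SE 0.15) for induced against uninduced livers. In the last comparison they were Ewsr1 (0.20, SE 0.076, edgeR adjusted p = 0.464) and again Nudt21 (-0.18, SE 0.094). The transcripts of all 20 listed genes had log2 fold changes between -0.19 and 0.30 in the 3 comparisons.

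The 27 nuclear speckle and splicing genes had medians of 0.041, 0.032 and 0.032. Luc7l2 (0.14, SE 0.094) and Srsf10 (0.14, SE 0.090) led the first comparison, and Srsf11 (0.14, SE 0.071) and Prpf8 (-0.12, SE 0.066), a core component of the spliceosome, the second. Prpf8 (-0.18, SE 0.070) and Rbm25 (-0.18, SE 0.083) led the last, with edgeR adjusted p = 0.479 and 0.527. Nuclear RNA decay and stability factors (16 genes) had medians of 0.044, 0.0041 and -0.079. There Zcchc7 (0.20, SE 0.093) and Pabpn1 (0.20, SE 0.13), the nuclear poly(A)-binding protein, came first for induced against ASAH- livers, Pabpn1 (0.23, SE 0.13) and Exosc10 (0.12, SE 0.10), the nuclear exosome's ribonuclease, for induced against uninduced, and Exosc10 (0.15, SE 0.11) and Rbm7 (0.10, SE 0.076) for the last. These are small differences and none passed the test.

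Other well-described long noncoding RNAs were likewise without a call in 26 tested of 31 listed, with medians of -0.0030, 0.086 and 0.077. Firre, which takes part in nuclear organisation, had 0.15 (SE 0.10) and H19, an imprinted RNA, -0.90 (SE 0.65) for induced against ASAH- livers. Firre (0.26, SE 0.10) and Snhg8 (0.41, SE 0.19) led for induced against uninduced livers, with edgeR adjusted p = 0.619 and 0.674. Snhg8 (0.41, SE 0.20) and Gas5 (0.17, SE 0.099), hosts of small nucleolar RNAs, led the last.

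In the list of ribosomal and 7S RNA, which poly(A) selection should remove, 4 of 7 genes were tested. It also holds Lars2, a messenger RNA for the mitochondrial leucyl-tRNA synthetase and the most abundant gene of the list. Gm26917 had log2 fold changes of 0.28 (SE 0.32), 0.80 (SE 0.33, edgeR adjusted p = 0.621) and 0.52 (SE 0.34), and Rn7sk, the 7SK RNA that restrains transcription elongation, -0.35 (SE 0.35), 0.60 (SE 0.37) and 0.95 (SE 0.39, adjusted p = 0.488). Both were lowest in uninduced ASAH+ livers, as 1810008I18Rik and Neat1 were. The other two, named after their values were seen, differed less: Gm42418 had means of 1117 CPM in ASAH+ Etoh, 1274 in ASAH- Etoh-Dox and 1262 in ASAH+ Etoh-Dox, and Lars2, at 2284, 2197 and 2262 CPM, was highest in ASAH+ Etoh. Whether carry-over of such RNA bears on the members was not tested.

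Markers of the cells a liver sample holds were checked in the same mice, since in whole liver fewer cells of a type and less RNA per cell cannot be told apart. The 6 hepatocyte markers, led by Alb, summed to 116219 to 134344 CPM in ASAH- Etoh-Dox, 83923 to 122545 in ASAH+ Etoh-Dox and 94907 to 120931 in ASAH+ Etoh. For induced against ASAH- livers their median log2 fold change was -0.27, with 2 of 6 at an unadjusted p under 0.05. Over all genes tested, 2.86% had such a p in this comparison. Markers of other cell types had negative medians as well: -0.43 for endothelial cells (4 of 6 at such a p), -0.31 for Kupffer cells (0 of 6), -0.20 for stellate cells (2 of 6), -0.35 for cholangiocytes (0 of 5) and -0.36 for red blood cells (0 of 5), with 0 genes positive in each of these 6 lists. Neutrophil markers had -0.46 (2 genes tested), whereas lymphocyte markers had a positive median of 0.084, with 4 of 6 genes positive and 0 of 6 at such a p. The 5 red blood cell markers, led by Hbb-bs, summed to 135 to 192 CPM in ASAH+ Etoh, against 215 to 1714 in ASAH- Etoh-Dox and 241 to 871 in ASAH+ Etoh-Dox. The group means of 1810008I18Rik and Neat1 were also lowest in ASAH+ Etoh, though Neat1 did not pass the test. A relation of these markers to either member across mice was not tested. Against ASAH+ Etoh the median log2 fold change of the red blood cell markers was 1.85 in ASAH+ Etoh-Dox and 2.16 in ASAH- Etoh-Dox. An unadjusted p under 0.05 was seen for 5 of 5 genes in both. Over all genes tested, 7.29% and 9.19% had such a p in these comparisons. Kupffer cell markers (medians 0.31 and 0.58) and lymphocyte markers (0.77 and 0.85) had 6 of 6 genes positive in both, with 0 and 4 of 6 and 2 and 2 of 6 at such a p. Endothelial markers went the other way, with medians of -0.48 (1 of 6 positive, 5 of 6 at such a p) and -0.11 (2 of 6 positive, 0 of 6). For hepatocytes the medians were -0.13 (2 of 6 positive, 1 of 6 at such a p) and 0.10 (6 of 6 positive, 1 of 6). Stellate cells had 0.035 (4 of 6 positive, 0 of 6) and 0.27 (6 of 6 positive, 3 of 6). Cholangiocytes had -0.079 (1 of 5 positive, 0 of 5) and 0.29 (5 of 5 positive, 0 of 5). Neutrophils had -0.48 (0 of 2 positive, 0 of 2) and -0.022 (1 of 2 positive, 0 of 2). The 6 sinusoidal endothelial markers, led by Clec4g, summed to 108 to 150 CPM in induced livers, against 125 to 231 in ASAH- Etoh-Dox and 139 to 191 in ASAH+ Etoh. None of these genes passed the threshold, which 2 of 14317 genes (0.014%) did in each comparison. The part of any of these cell types in the levels of the members was not tested.

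The 6 Kupffer cell markers (led by Cd5l) summed to 315 to 676 CPM in ASAH- Etoh-Dox, 235 to 450 in ASAH+ Etoh-Dox and 246 to 313 in ASAH+ Etoh. Those of stellate cells (Dcn) summed to 263 to 312, 210 to 257 and 224 to 274 CPM, and those of cholangiocytes (Spp1) to 36.0 to 79.1, 31.5 to 46.8 and 38.3 to 51.9 CPM. Both lists had their lowest range in the induced livers. Lymphocyte (Cd79a) and neutrophil (S100a9) markers summed to under 5 CPM in each mouse, with Ly6g at 0 in the induced group. Acinar markers (Cela2a) and adipocyte markers (Adipoq) summed to at most 1.00 and 0.14 CPM, and Pnlip was at 0 in every mouse.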

How the data were processed

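RNA of 13 livers was made into poly(A)-selected, stranded libraries and sequenced as 100-base single reads. The authors mapped them with salmon to GENCODE M19 transcripts (GRCm38.p6) and summed them per gene with tximport, and the deposited values are expected counts, rounded to whole numbers, of 53392 genes. Salmon divides reads that fit several transcripts by estimate. No column was left without a sample.

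Counts were filtered (filterByExpr), scaled by TMM and fitted with edgeR 4.0.16 (quasi-likelihood, robust, R 4.3.3) as 3 group means over all mice. Benjamini-Hochberg adjustment covered 14317 genes, with a threshold of 0.1. Log2 CPM used a prior count of 2. Neat1 and Malat1 were also compared between groups by exact two-sided permutation of mice. No test between groups is given for the picked members, since all groups entered their choice (a test between the groups without induction had been planned). Correlations used 100000 permutations within groups. DESeq2 1.42.0, limma 3.58.1, other filters and scalings, a replicate block, a clock covariate and leaving out each mouse were alternatives. Summing genes with shared sequence was added after the data were seen. Positions and words of 31 bases are from GENCODE M21, which matched 53355 identifiers, and repeat annotation was not used here. Scripts were tested on simulated data.

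Members and gene lists were chosen with earlier results of these data known. Named genes were the members, Asah1, Dbp, Arntl, overlapping genes and nearest protein-coding neighbours, the 3 genes with the highest r to each member, the 2 genes of smallest p in each list and comparison, and the most abundant marker of each cell type. A single one of the neighbours is not reported here. The genes beside the members above all mice without induction and the related genes were named after their values were seen. Mice are littermates, and no batch is given in the labels. Replicates of a group differed by 17.3 to 95.4 times the chi-square expected per degree of freedom, so none was a repeat of another. The precision of each gene is its SE.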

Additional observations from a re-analysis of the deposited data

How the results depend on the processing

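Gm47761, Gm42047 and 1810008I18Rik kept their direction in all 3 comparisons under every alternative run. All groups entered the choice of these genes, and the alternatives refit the same mice. Their kept direction is therefore a description and no support, also beside Neat1 and Malat1, which were not picked by their values. Outside the fits that leave out a mouse or sum genes, induced against ASAH- livers gave 0.98 to 1.04, 1.00 to 1.09 and 0.50 to 0.55 on the log2 scale for these genes, and induced against uninduced livers gave 0.47 to 0.55, 0.35 to 0.46 and 0.78 to 0.86. Leaving out each of 13 mice in turn gave 0.87 to 1.15, 0.88 to 1.23 and 0.41 to 0.56 for the former and 0.30 to 0.59, 0.15 to 0.51 and 0.69 to 0.89 for the latter. Neat1 and Malat1 changed sign for induced against ASAH- livers: Neat1 was 0.16 with the replicate block, Malat1 was 0.029 with limma, and leaving out a mouse gave -0.46 to 0.16 and -0.19 to 0.17. The cause was not tested. For Malat1 leaving out a mouse gave -0.0011 to 0.099 for induced against uninduced livers and -0.12 to 0.23 for ASAH- against uninduced livers. No alternative moved Neat1 or Malat1 past the threshold, and the listed genes had 0 calls throughout. Over all genes, DESeq2 called 12, 95 and 150 genes where edgeR called 2, 2 and 2, in the order induced against ASAH-, induced against uninduced and ASAH- against uninduced. Replicate numbers did not pair the mice (r of -0.26 to 0.19 in 12 same-numbered pairs), and the replicate block left 1, 2 and 0 calls. Depth limits Gm47761 most, with 89 counts in 1 mouse.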
